A study of Mus musculus with 2 samples.

Results

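The genes described here are 59 genes of DNA replication, entry into S phase and mitosis, measured in mouse fetal thymic stromal cells that had been grown either in reaggregation thymus organ culture (RTOC), in which dispersed cells are packed together on a membrane and grow in 3 dimensions, or as a 2D culture on a dish. Members were chosen by symbol: every non-control probe whose gene name, or whose accession, gives one of the 59 genes, older names such as Cdc2a for Cdk1 included. All 59 genes were on the array, with 93 probes, among 19505 named genes and 41174 probes. They form a replication group of 24 genes, a group of 10 genes of G1 and S entry, and a mitosis group of 25 genes.

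The data are 2 two-colour arrays. On the E15.5 array, both channels hold RNA of C57BL/6 fetal thymus stroma kept for 9 days in fetal thymus organ culture, and on the E14.5 array for 8 days, in both cases with 1.35 mM deoxyguanosine, an agent that depletes thymocytes, before the cells were dispersed and grown for 72 h in RTOC (Cy5) or in 2D culture (Cy3). The labels name the cells as thymic stromal cells and mention no sorting, so each channel is a mixture of cell types, in which fewer cells of a type and less RNA per cell cannot be told apart. The dyes were not swapped, so that dye and culture cannot be told apart, and with 1 array for each stage, neither can stage, array and the days in organ culture.

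A cell must load the MCM helicase onto its replication origins in G1 phase, a step called licensing, before it can fire them in S phase; Orc, Cdc6 and Cdt1 load the helicase, and geminin blocks reloading until the cell has divided. D-type cyclins with Cdk4 or Cdk6 and then E-type cyclins with Cdk2 release the E2F factors that switch on the S-phase genes. Mitosis genes form a later wave, repressed through the CHR element by the DREAM complex in resting and G1 cells and switched on in G2 phase by B-Myb and FoxM1, with NF-Y at CCAAT boxes, and in the fetal thymus both waves are used by growing epithelial and mesenchymal stroma as well as by dividing thymocytes.

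The sequences upstream of the members, which the arrays do not measure, differed between the groups. In 300-base promoter windows from RefSeq, running from 250 bases before to 50 bases after each gene's start (GRCm38.p6), 45 of the 59 members had 47 windows. Each window was searched on both strands. For E2F sites the letters TTCCCGC were searched first, then the form with TTCGCGC, then a form spelled TTGCCGC, and last the form spelled TTGGCGC. For CHR elements the letters were TTTGAA, with the variant spelled TTCGAA counted as well, and the CCAAT box was searched as its name spells it. An E2F site was found in 14 of the 20 windows of the replication group, in 3 of the 20 windows of the mitosis group and in 1 of 7 windows of G1 and S entry genes, against 9.57% of all 32851 windows. CHR elements showed the reverse, with 3 of 20 windows in replication, 15 of 20 in mitosis and 0 of 7 in G1 and S entry, against 19.2% of all windows. CCAAT boxes were in 15 of 20, 17 of 20 and 2 of 7 windows, against 37.4% of all windows. All 15 mitosis windows with a CHR element also held a CCAAT box, a pair found in 7.52% of all windows. Matches of different motifs overlapped in 3 of the members' windows. A match describes letters in a window and says nothing of whether a factor bound there in these cells.

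The 3 replication promoters shown are those of the helicase subunits Mcm3 and Mcm6 and of the clamp loader subunit Rfc4. Mcm3 and Mcm6 had opposite signs on the arrays, whereas Rfc4 was higher in RTOC on both. Capitals mark E2F sites and CCAAT boxes, read as their reverse complement where the match is on the opposite strand.
Mcm3 (GRCm38.p6, chr1:20820263-20820562, minus strand): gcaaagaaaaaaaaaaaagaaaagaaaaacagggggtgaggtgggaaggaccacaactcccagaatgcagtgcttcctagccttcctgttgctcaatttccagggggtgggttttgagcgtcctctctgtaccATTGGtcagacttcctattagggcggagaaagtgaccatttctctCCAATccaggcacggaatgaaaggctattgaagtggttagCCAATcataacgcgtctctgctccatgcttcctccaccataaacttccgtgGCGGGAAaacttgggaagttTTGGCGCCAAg
Mcm6 (GRCm38.p6, chr1:128359656-128359955, minus strand): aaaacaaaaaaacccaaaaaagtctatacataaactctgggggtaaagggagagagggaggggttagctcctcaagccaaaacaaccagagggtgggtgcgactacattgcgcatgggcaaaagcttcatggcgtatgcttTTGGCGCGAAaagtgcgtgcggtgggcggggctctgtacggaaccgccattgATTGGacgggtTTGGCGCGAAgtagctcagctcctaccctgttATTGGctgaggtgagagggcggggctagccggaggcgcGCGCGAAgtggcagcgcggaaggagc
Rfc4 (GRCm38.p6, chr16:23127681-23127980, minus strand): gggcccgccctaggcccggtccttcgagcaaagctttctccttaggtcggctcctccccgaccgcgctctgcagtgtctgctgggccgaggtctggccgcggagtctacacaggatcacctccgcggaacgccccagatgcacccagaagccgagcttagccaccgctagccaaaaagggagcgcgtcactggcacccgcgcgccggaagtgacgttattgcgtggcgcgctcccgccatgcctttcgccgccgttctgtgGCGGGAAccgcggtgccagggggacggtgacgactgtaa

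The mitosis promoters shown are those of the mitotic cyclin Ccnb2, the spindle motor Kif11 and the proliferation antigen Mki67, 3 genes higher in RTOC by the test below. Capitals mark CHR elements, CCAAT boxes and, in Mki67, 1 E2F site.
Ccnb2 (GRCm38.p6, chr9:70421505-70421804, minus strand): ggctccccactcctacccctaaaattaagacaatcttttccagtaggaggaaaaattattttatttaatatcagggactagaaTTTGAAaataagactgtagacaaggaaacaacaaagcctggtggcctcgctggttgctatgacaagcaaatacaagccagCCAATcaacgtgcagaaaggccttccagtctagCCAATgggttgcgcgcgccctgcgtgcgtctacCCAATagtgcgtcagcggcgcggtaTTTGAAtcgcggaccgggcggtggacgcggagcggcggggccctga
Kif11 (GRCm38.p6, chr19:37376132-37376431, plus strand): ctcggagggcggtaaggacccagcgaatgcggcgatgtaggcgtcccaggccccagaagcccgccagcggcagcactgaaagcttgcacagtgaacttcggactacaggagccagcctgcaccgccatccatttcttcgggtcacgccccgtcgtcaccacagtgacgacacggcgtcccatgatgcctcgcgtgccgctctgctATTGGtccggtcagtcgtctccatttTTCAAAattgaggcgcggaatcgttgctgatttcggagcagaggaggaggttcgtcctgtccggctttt
Mki67 (GRCm38.p6, chr7:135716330-135716629, minus strand): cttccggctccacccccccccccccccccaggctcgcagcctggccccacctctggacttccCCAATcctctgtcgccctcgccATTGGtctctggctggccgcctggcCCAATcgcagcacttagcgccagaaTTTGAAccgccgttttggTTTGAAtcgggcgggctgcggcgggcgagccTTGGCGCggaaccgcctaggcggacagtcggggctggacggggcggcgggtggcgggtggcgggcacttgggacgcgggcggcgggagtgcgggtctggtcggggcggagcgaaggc

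The window of Cdk6, one of the 3 members lower in RTOC, is shown as the contrasting case, because none of these letters was found in it.
Cdk6 (GRCm38.p6, chr5:3343643-3343942, plus strand): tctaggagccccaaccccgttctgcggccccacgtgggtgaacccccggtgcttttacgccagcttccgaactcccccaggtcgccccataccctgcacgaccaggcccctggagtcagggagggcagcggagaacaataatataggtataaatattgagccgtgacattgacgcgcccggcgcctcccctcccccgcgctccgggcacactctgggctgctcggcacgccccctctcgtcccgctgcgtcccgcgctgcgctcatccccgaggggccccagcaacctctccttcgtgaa

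Of the 25 mitosis genes 19 had more signal in RTOC on both arrays, beside 40.1% of all named genes tested, and 6 of them passed the test. Of the 24 replication genes 15 were below 0 at E14.5 and 20 were above 0 at E15.5, with 2, Gmnn and Rfc4, past the test. The shares past the test, 24% of the mitosis and 8.33% of the replication genes, were below the 28.1% of all named genes tested. The G1 genes Ccnd1, Ccnd2 and Cdk6 were lower in RTOC on both arrays, by 6.98-, 4.28- and 3.35-fold. Values are log2 ratios of normalized signal, RTOC over 2D culture, for the brightest probe of each gene, and the test was limma's moderated test over 2 arrays with Benjamini-Hochberg adjustment over all 23685 probes tested and a threshold of 0.05. All 59 members were tested, and 57 of them were well above background in all 4 channels. The 2 others, the kinase genes Cdk2 and Ttk, lacked a signal well above background in the E15.5 2D channel. No member's spot was saturated or flagged as an outlier.

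Of the 59 members, 12 passed the threshold, 9 higher and 3 lower in RTOC. None passed when dim probes were kept in limma's test, or when the methods' t-test was adjusted over all probes; unadjusted, that test called 7 higher and 4 lower. Among 13498 named genes tested in the same way, 28.1% passed, 15.4% higher and 12.7% lower, beside 20.3% of the members. The median of the 59 mean log2 ratios was 0.18, against 0.00 over all named genes tested. By group, 2 of 24 replication genes rose and none fell, 6 of 25 mitosis genes rose and none fell, and among the 10 genes of G1 and S entry 1 rose and 3 fell. P-values rest on the spread between the 2 arrays, whose samples are not stated to come from separate animals for each culture. These arrays were used as replicates but differ in stage and in days of organ culture, so the spread includes those differences. In limma's test a gene's own spread was moderated by a prior and weighed little. Cdc25b, with an SD of 0.02, had a standard error of 0.25, and Mki67, with an SD of 0.24, had 0.26.

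**Figure D1:**
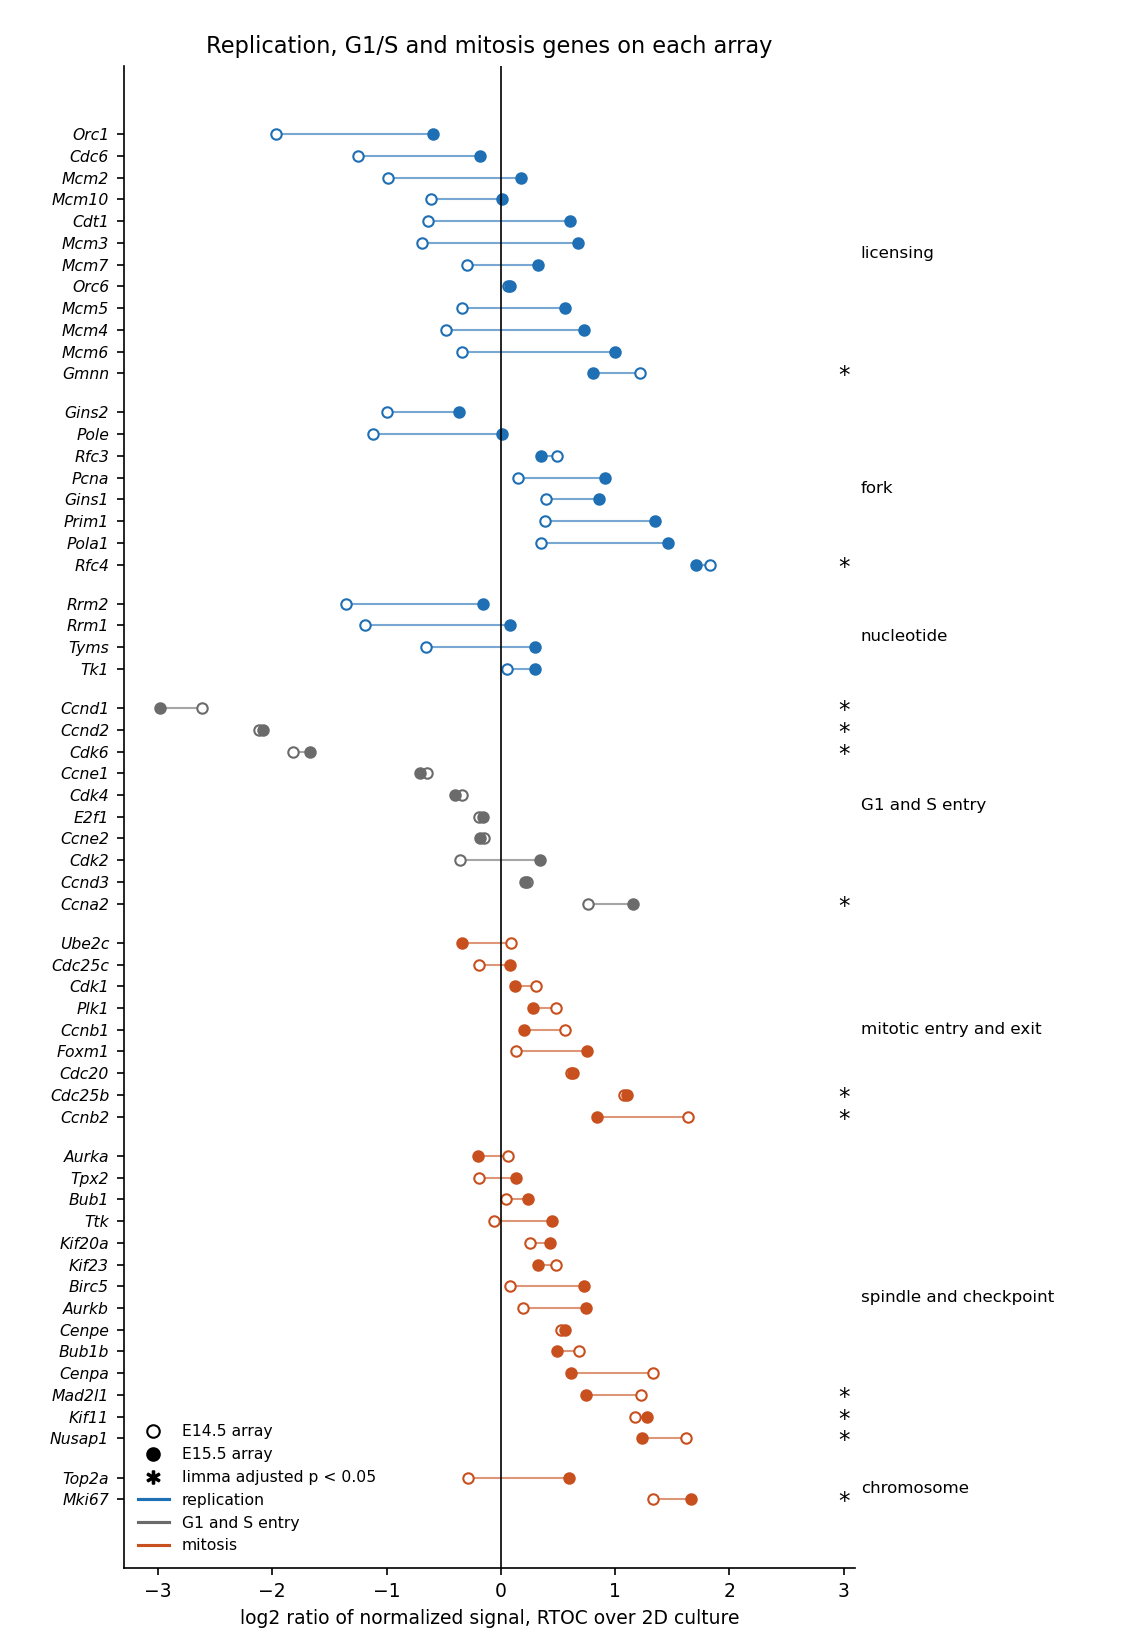
Log2 ratio of normalized signal, RTOC over 2D culture, of the 59 members by class; open circles are the E14.5 array, filled circles the E15.5 array, the line joins the 2 arrays of a gene and is no error bar, and asterisks mark limma adjusted p under 0.05. Of the 12 licensing genes 10 lie left of 0 on E14.5 and 10 right of 0 on E15.5, with ranges from -1.97 to 1.22 and from -0.59 to 0.996, while 19 of 25 mitosis genes lie right of 0 on both arrays.

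Of the 12 licensing genes 8 were below 0 at E14.5 and above 0 at E15.5, 2 were above 0 on both arrays and 2 below 0 on both. The 6 subunits of the replicative helicase, Mcm2 to Mcm7, were all below 0 at E14.5 and all above 0 at E15.5. Mcm6 had log2 signals of 14.70 in 2D culture and 14.36 in RTOC at E14.5, and of 13.64 and 14.63 at E15.5. Its log2 ratios were thus -0.34 and 0.996, a mean of 0.33 ± 0.95 (SD, n = 2; adjusted p = 0.550). Mcm3 had log2 signals of 13.55 (2D) and 12.86 (RTOC) at E14.5 and of 12.25 (2D) and 12.92 (RTOC) at E15.5. The 2D signal of both genes was lower on the E15.5 array, by more than their RTOC signal was higher.

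The other 4 subunits had the same signs, and each also had a lower 2D signal and a higher RTOC signal on the E15.5 array. In Mcm7 these differences were closest in size, at -0.38 and 0.24 log2 units. Mcm2 had log2 signals of 11.70 (2D) and 10.72 (RTOC) at E14.5 and of 10.62 and 10.80 at E15.5, and log2 ratios of -0.98 and 0.17. Mcm4 moved from a log2 ratio of -0.48 to 0.73, Mcm5 from -0.34 to 0.56, and Mcm7 from -0.30 to 0.33. None of the 6 passed the threshold, with means between -0.40 and 0.33. The opposite signs of a gene on the arrays were not tested, as each stage has 1 array.

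Cdt1, which helps to load the helicase, and Mcm10, which acts when the helicase is activated, were also below 0 at E14.5 and above 0 at E15.5. The log2 ratios of Cdt1 were -0.64 (E14.5) and 0.60 (E15.5), and those of Mcm10 were -0.61 and 0.01. The RTOC signal of Mcm10, unlike that of the subunits, was lower on the E15.5 array, with a difference of -0.51 log2 units. Orc1 and Cdc6, which mark and prepare the origin, were below 0 on both arrays, for Cdc6 in its brightest probe. Orc1 had log2 signals of 8.74 (2D) and 6.77 (RTOC) at E14.5 and of 7.01 and 6.41 at E15.5, a mean log2 ratio of -1.28 ± 0.97 (SD, n = 2; adjusted p = 0.0581). It did not pass the threshold, but passed it when the probes tested were limited to those well above background in all 4 channels (adjusted p = 0.0390). With normexp and loess, a background correction and normalization tried as an alternative, the mean of Orc1 was -0.39 (adjusted p = 0.196) and that of Cdc6 -0.30. Cdc6 had log2 ratios of -1.25 and -0.18, and Orc6, a further subunit of the origin complex, had 0.07 and 0.08.

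Gmnn, which encodes geminin, the inhibitor of relicensing, was the member of this class that rose. Its log2 signals were 13.64 (2D) and 14.86 (RTOC) at E14.5 and 13.04 and 13.84 at E15.5, with RTOC above 2D on both arrays. The mean log2 ratio was 1.01 ± 0.29 (SD, n = 2), or 2.01-fold, with a limma adjusted p of 0.0406 (0.164 without the array as a block). Thus the loaders Orc1, Cdc6 and Cdt1 were below geminin in log2 ratio on both arrays, a comparison of differences and not of levels.

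At the replication fork, Rfc4 rose. Rfc4, a subunit of the clamp loader, had log2 signals of 11.68 (2D) and 13.52 (RTOC) at E14.5 and of 11.12 and 12.82 at E15.5, a mean log2 ratio of 1.77 ± 0.09 (SD, n = 2), or 3.41-fold (adjusted p = 0.00713). Rfc3, another subunit of the same loader, had log2 ratios of 0.49 and 0.35 (adjusted p = 0.254), the mean nearest 0 in the class at 0.42. The primase-polymerase genes Pola1 and Prim1, which start each new strand, were above 0 on both arrays, and more so at E15.5. Pola1 had log2 ratios of 0.35 and 1.46 (adjusted p = 0.102), and Prim1 had 0.39 and 1.35 (adjusted p = 0.0972).

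Pcna, the sliding clamp that Rfc loads, had log2 ratios of 0.15 at E14.5 and 0.92 at E15.5 (adjusted p = 0.225). Its probe was printed as 10 spots, whose ratios had an SD of 0.02 and 0.03 on the arrays, a spread of spots that does not cover the spread between samples. Gins1 and Gins2, subunits of the complex that joins the helicase to the polymerase, lay on opposite sides, at 0.40 and 0.86 for Gins1 and at -0.996 and -0.36 for Gins2, and neither passed the threshold. Pole, the catalytic subunit of the leading-strand polymerase, had log2 ratios of -1.12 and 0.01.

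The nucleotide supply genes also had lower ratios at E14.5 than at E15.5. Rrm1 and Rrm2 encode the subunits of ribonucleotide reductase, which makes deoxynucleotides. Rrm2 had log2 signals of 11.97 (2D) and 10.61 (RTOC) at E14.5 and of 10.49 and 10.33 at E15.5, and log2 ratios of -1.36 and -0.16 (adjusted p = 0.164). Rrm1 had log2 ratios of -1.19 and 0.08, and Tyms, thymidylate synthase, had -0.65 and 0.30. Tk1, thymidine kinase, had 0.06 and 0.30. All 4 genes had the higher ratio on the E15.5 array, and none passed the threshold.

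Counted over the group, 21 of 24 replication genes had a higher ratio on the E15.5 array than on the E14.5 array, against 51.5% of named genes tested, and 11 were below 0 at E14.5 and above 0 at E15.5, against 10.7%. None of the 24 had the reverse pattern, seen in 9.62% of named genes. The median log2 ratio of the group was -0.41 at E14.5 and 0.34 at E15.5, against -0.01 and 0.02 over all named genes tested. By class, the medians were -0.55 and 0.44 for licensing genes and -0.92 and 0.19 for nucleotide supply genes. The fork class differed, with medians of 0.37 and 0.89, and 1 of its 8 genes had opposite signs on the arrays. For each gene, the same probe can be set against itself across the arrays. In 2D culture 23 of 24 replication genes had a lower normalized signal on the E15.5 array (48.7% of named genes did), with a median difference of -1.06 log2 units. In RTOC 14 of 24 did (44.6% of named genes), with a median difference of -0.07.

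**Figure D2:**
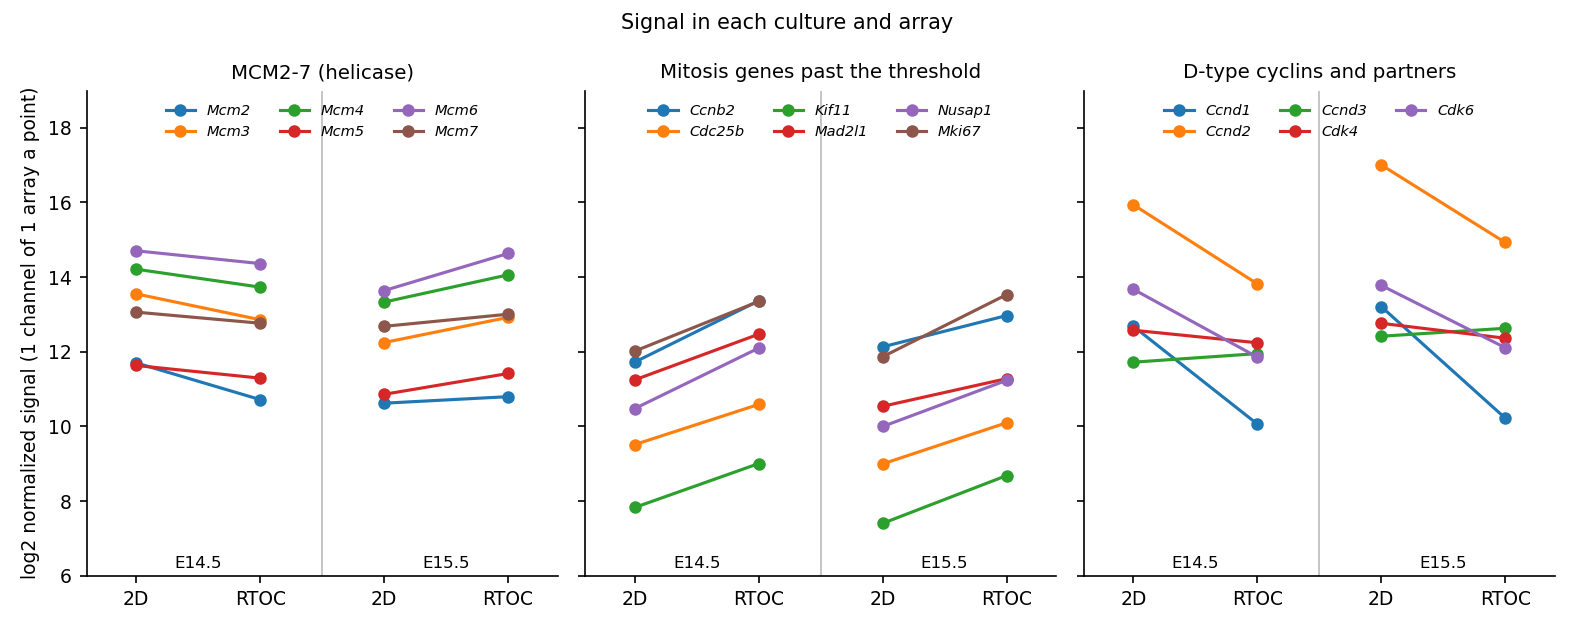
Log2 normalized signal in each channel (2D culture and RTOC of the E14.5 array, then of the E15.5 array) for the helicase subunits, the 6 mitosis genes past the threshold, and the D-type cyclins with their kinases; each point is 1 channel of 1 array, without error bars, and lines join the channels of an array. The lines of Mcm2 to Mcm7 slope down at E14.5 and up at E15.5, those of the mitosis genes slope up on both, and those of Ccnd1, Ccnd2 and Cdk6 slope down on both; heights of different genes are those of different probes and are not comparable.

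In the G1 and S entry group, Ccnd1 and Ccnd2 had the largest mean differences of all 59 members, and Cdk6 fell with them. Ccnd1 encodes cyclin D1, which links growth signals to the cell cycle. It had log2 signals of 12.68 (2D) and 10.06 (RTOC) at E14.5 and of 13.21 and 10.22 at E15.5, with RTOC far below 2D culture on both arrays. The mean log2 ratio was -2.80 ± 0.26 (SD, n = 2), or 6.98-fold lower in RTOC (adjusted p = 0.00256), and only 226 of 13498 named genes had a lower mean.

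Ccnd2, cyclin D2, had log2 signals of 15.94 (2D) and 13.82 (RTOC) at E14.5 and of 17.01 and 14.93 at E15.5. Its mean log2 ratio was -2.10 ± 0.03 (SD, n = 2), or 4.28-fold lower (adjusted p = 0.00435, or 0.0510 without the array as a block), and its 3 probes gave means between -2.10 and -1.96. Both cultures had more Ccnd2 signal on the E15.5 array, by 1.07 and 1.11 log2 units, and the ratio was the same. Cdk6, a kinase that D-type cyclins activate, had log2 signals of 13.67 (2D) and 11.86 (RTOC) at E14.5 and of 13.78 and 12.11 at E15.5. The mean log2 ratio of Cdk6 was -1.74 ± 0.11 (SD, n = 2), or 3.35-fold lower (adjusted p = 0.00744), and its 3 probes gave means from -2.52 to -1.74. With normexp and loess the brightest probe of Cdk6 gave -1.70 and the dimmer probes -0.67 and -0.42.

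The other D-type cyclin and the other partner kinase did not pass the threshold. Ccnd3, cyclin D3, had log2 ratios of 0.23 and 0.21 (adjusted p = 0.538), and Cdk4 had -0.34 and -0.40 (adjusted p = 0.309). The E-type cyclins act with Cdk2 at the start of S phase, and their brightest probes were below 0 on both arrays. Ccne1 was at -0.64 and -0.71 (adjusted p = 0.0964, or 0.0467 with normexp and loess). Ccne2 was at -0.15 and -0.19, the smallest difference in the class among members well above background in all channels. Ccne2 had a lower signal on the E15.5 array in both cultures, with differences of -1.82 and -1.86 log2 units. Cdk2 itself had log2 ratios of -0.36 and 0.35.

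Ccna2, cyclin A2, which acts from S phase into mitosis, was the member of this group that rose. Its log2 signals were 11.69 (2D) and 12.46 (RTOC) at E14.5 and 11.43 and 12.58 at E15.5, a mean log2 ratio of 0.96 ± 0.27 (SD, n = 2; adjusted p = 0.0454, or 0.0655 without the array as a block). E2f1, a factor of the S-phase genes, depended on the probe. The brighter probe gave a mean log2 ratio of -0.17 (adjusted p = 0.630), and the dimmer probe, printed as 10 spots, gave -1.46 (adjusted p = 0.0128). The 2 probes of Ccne1 differed in the same manner, at -0.68 (adjusted p = 0.0964) for the brighter and -1.29 (adjusted p = 0.0182) for the dimmer. With normexp and loess the dimmer probes gave -0.35 for E2f1 and -0.34 for Ccne1.

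In the class of mitotic entry and exit, Ccnb2 and Cdc25b rose. Ccnb2, cyclin B2, had log2 signals of 11.72 (2D) and 13.37 (RTOC) at E14.5 and of 12.13 and 12.97 at E15.5, a mean log2 ratio of 1.24 ± 0.57 (SD, n = 2), or 2.36-fold (adjusted p = 0.0337). Cdc25b, a phosphatase that activates Cdk1, had 9.51 (2D) and 10.59 (RTOC) at E14.5 and 9.00 and 10.10 at E15.5. Its mean log2 ratio was 1.09 ± 0.02 (SD, n = 2; adjusted p = 0.0283), and a further probe gave 1.22, while the remaining probe was not tested because it was too dim.

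Cdc20, which activates the anaphase-promoting complex, had log2 ratios of 0.61 and 0.63 (adjusted p = 0.117). Cdk1, the mitotic kinase, had 0.31 and 0.12, Ccnb1, its main cyclin, had 0.56 and 0.20, and Plk1, a kinase of mitotic entry, had 0.48 and 0.28. Foxm1, the factor of the late wave, had log2 ratios of 0.14 and 0.75. These 5 genes were above 0 on both arrays, and none passed the threshold. Cdc25c, at -0.19 and 0.08, and Ube2c, the ubiquitin conjugase of mitotic exit, at 0.09 and -0.34, had opposite signs on the arrays.

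Among the 14 genes of the spindle and checkpoint, Nusap1, Kif11 and Mad2l1 rose. Nusap1, a microtubule-binding protein of the spindle, had log2 signals of 10.48 (2D) and 12.10 (RTOC) at E14.5 and of 10.00 and 11.23 at E15.5, a mean log2 ratio of 1.43 ± 0.27 (SD, n = 2), or 2.69-fold (adjusted p = 0.0154). Kif11, the motor that pushes spindle poles apart, had 7.83 and 9.00 at E14.5 and 7.40 and 8.68 at E15.5, a mean log2 ratio of 1.23 ± 0.07 (SD, n = 2; adjusted p = 0.0205). Mad2l1, which holds anaphase until chromosomes are attached, had 11.25 and 12.47 at E14.5 and 10.54 and 11.28 at E15.5, a mean log2 ratio of 0.98 ± 0.34 (SD, n = 2; adjusted p = 0.0459). All 3 genes had more signal in RTOC on both arrays. With normexp and loess the calls of Ccnb2 (adjusted p = 0.0583), Kif11 (0.0521, with a mean log2 ratio of 0.60) and Mad2l1 (0.0531) were lost, and in a fit without the array as a block those of Nusap1 (adjusted p = 0.0620), Mad2l1 (0.211) and Cdc25b (0.0791).

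The remaining spindle genes were smaller in difference. Cenpa, the centromeric histone, had log2 ratios of 1.33 and 0.62 (adjusted p = 0.0579), passing the threshold in 4 distinct alternatives, among them median centring (adjusted p = 0.0212), and Bub1b, a checkpoint kinase, had 0.68 and 0.49 (adjusted p = 0.137). The chromosomal passenger genes Aurkb and Birc5 had log2 ratios of 0.20 and 0.08 at E14.5 and of 0.74 and 0.73 at E15.5. Aurka and Tpx2, the spindle kinase and its activator, were near 0: 0.06 and -0.20 for Aurka, and -0.19 and 0.13 for Tpx2, the mean nearest 0 among class members well above background in all channels. Ttk, the dim checkpoint kinase, had -0.06 and 0.45, and Bub1, Kif20a, Kif23 and Cenpe had mean log2 ratios from 0.14 to 0.54 with both arrays above 0.

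The chromosome class holds Mki67 and Top2a. Mki67, the antigen used to mark cycling cells, had log2 signals of 12.02 (2D) and 13.35 (RTOC) at E14.5 and of 11.87 and 13.53 at E15.5. The mean log2 ratio was 1.50 ± 0.24 (SD, n = 2), or 2.82-fold (adjusted p = 0.0129), and a further probe gave 1.30. Top2a, the topoisomerase that untangles sister chromosomes, had log2 ratios of -0.28 and 0.60 in its brightest probe, with a mean of 0.16, and a dimmer probe gave a mean of 1.09 (adjusted p = 0.0737), or 0.32 with normexp and loess.

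Over the mitosis group, 19 of 25 genes were above 0 on both arrays (40.1% of named genes tested were), none was below 0 on both (39.5% were), and 6 had opposite signs, against 20.4% of named genes tested. The median log2 ratio was 0.48 at E14.5 and 0.56 at E15.5. In 2D culture 22 of 25 genes had less signal on the E15.5 array, with a median difference of -0.46, and in RTOC 24 of 25 did, with a median difference of -0.42. The median difference of the mitosis genes was thus below 0 in both cultures, whereas that of the replication genes was near 0 in RTOC. Among the exceptions, Ccnb2 had more signal on the E15.5 array in 2D culture (by 0.41) and Mki67 in RTOC (by 0.18). The median ratio of the mitosis group exceeded that of the replication group by 0.89 log2 units at E14.5 and by 0.23 at E15.5, a description of 2 arrays without a test.

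**Figure D3:**
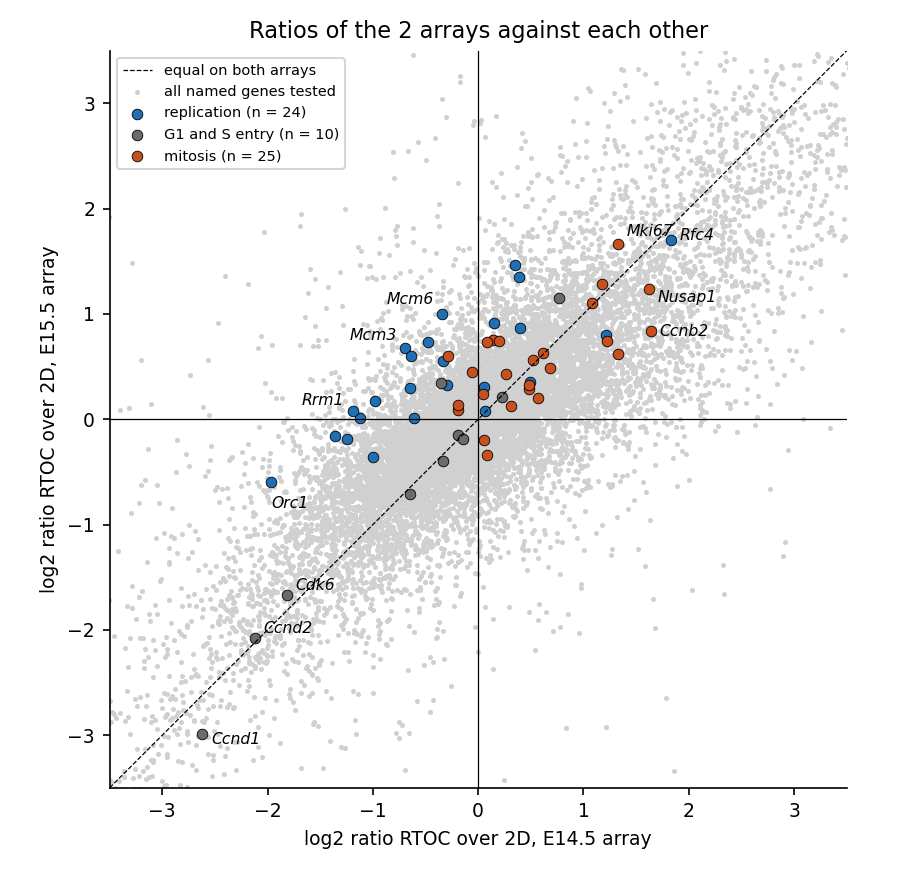
Log2 ratio RTOC over 2D culture on the E14.5 array (horizontal) against the E15.5 array (vertical), for named genes tested (grey, limited to the range drawn) and the 59 members by group; each point is 1 gene, and the dashed line marks equal ratios. Replication genes lie mostly above the dashed line, with 11 of 24 at the upper left, mitosis genes mostly in the upper right, and Ccnd1, Ccnd2 and Cdk6 on the lower left close to the line.

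Where a gene had several tested probes, they gave means of the same sign in 18 of 18 genes and the same call in 16, E2f1 and Ccne1 being the exceptions. The median spread between the probes of a gene was 0.191 log2 units. On single arrays the sign could depend on the probe. The second tested probe of Mcm3 gave log2 ratios of -0.94 and 0.08, with the signs of the brightest probe. That of Gins1 gave -0.30 and 0.43, where the brightest was above 0 on both arrays. Those of Ccne2, at -0.21 and 0.13, and of Cdc6, at -1.14 and 0.02, had opposite signs, where the brightest were below 0 on both. The second probes of Top2a, at 0.48 and 1.69, and of Cdk2, at -1.23 and -0.65, had the same sign on both arrays, where the brightest had opposite signs. This dimmer Cdk2 probe had a mean of -0.94, or -0.11 with normexp and loess.

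Beyond the members, 74 further genes of replication and mitosis were listed, of which 73 were tested. In replication, 2 of 33 rose and none fell. The 3 highest genes past the threshold were Rpa3, a subunit of the single-strand binding protein, at a mean log2 ratio of 1.59 ± 0.997 (SD, n = 2; adjusted p = 0.0341), Cenpf, a kinetochore protein, at 1.54 ± 0.13 (adjusted p = 0.0109), and Pttg1, securin, at 1.42 ± 0.57 (adjusted p = 0.0230). In mitosis, 8 of 40 rose and 1 fell. The gene that fell was Anln, anillin, which builds the contractile ring of cytokinesis, at -1.24 ± 0.51 (SD, n = 2; adjusted p = 0.0310). In all, 15.1% of the 73 passed, beside 28.1% of all named genes tested, and the shares of those that rose and fell over all named genes were 15.4% and 12.7%.

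The further replication genes had medians of -0.03 at E14.5 and 0.42 at E15.5, and 13 of 33 were below 0 and then above 0, while the further mitosis genes had 0.09 and 0.39, with 9 of 40. The mitosis median was thus above the replication median at E14.5 and below it at E15.5, where the members had it above on both arrays. Of the 40 further mitosis genes, 21 were above 0 on both arrays and 8 below 0 on both, whereas no mitosis member was below 0 on both. In 2D culture 31 of 33 replication genes and 37 of 40 mitosis genes had less signal on the E15.5 array, and in RTOC 26 of 33 and 38 of 40 did.

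Cell type markers moved with culture and array as well. The epithelial markers Epcam, Krt8 and Krt18 were well above background in all channels. Of 10 epithelial markers 4 rose and 3 fell, and their summed normalized signal was 317576 (E14.5) and 655698 (E15.5) in 2D culture and 715894 and 796646 in RTOC. Of 10 markers of fibroblasts and mesenchyme 3 rose and 5 fell, with sums of 450740 and 339750 in 2D culture and 275979 and 294646 in RTOC. Against the 2D culture of the E14.5 array, that of the E15.5 array thus had a lower fibroblast sum and a higher epithelial sum. In that comparison 23 of 24 replication members and 22 of 25 mitosis members were also lower in the E15.5 2D culture, beside 48.7% of named genes tested. Between the cultures of each array, the fibroblast sum was higher in 2D culture than in RTOC, and the epithelial sum lower. Bright probes weigh most in such sums, and the genes of each list were mixed in direction. At E15.5 Krt5 had log2 signals of 14.52 (2D) and 17.68 (RTOC), and Col1a1 had 17.43 and 15.56. The epithelial markers that fell were Krt14, Cldn4 and Cdh1, and the fibroblast markers that rose were Pdgfra, Dcn and Lum. Of 8 macrophage and dendritic markers 3 rose, with sums of 68810 and 57301 in 2D culture and 165524 and 216571 in RTOC. Of 6 endothelial markers 4 rose, with sums of 1542 and 635 in 2D culture and 6416 and 9961 in RTOC; 5 were tested and 4 stayed too near background in 2D culture to count as well above it. Of 13 thymocyte markers 3 rose and 1 fell, with sums of 2888 and 3377 in 2D culture and 6923 and 4579 in RTOC. Only 9 were tested, without Cd4, Cd8a, Rag1 and Rag2, and 6 stayed near background in 2D culture. Ptprc was the brightest of the list in RTOC, with log2 signals of 11.58 (E14.5) and 11.26 (E15.5), so it weighs most in those sums. Cd8a and Rag2 were well above background in no channel. Of the 4 erythroid markers described here 2 were tested, and Hba-a1 rose and Tfrc fell. The erythroid sums were 4950 (E14.5) and 3631 (E15.5) in 2D culture and 5644 and 1689 in RTOC. Tfrc was the brightest of the 4 in 2D culture on both arrays and in RTOC at E15.5, and Hba-a1 in RTOC at E14.5, so these sums mostly follow those genes. The part of these cell types in the values of the replication and mitosis genes was not tested.

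The group medians were followed through each way of making the ratios. The replication group stayed below 0 at E14.5, between -0.48 and -0.37, and above 0 at E15.5, between 0.27 and 0.55. The mitosis group lay between 0.28 and 0.53 at E14.5 and between 0.40 and 0.82 at E15.5. Mcm2 to Mcm7 were 6 of 6 below 0 at E14.5 and 6 of 6 above 0 at E15.5 also with normexp and loess, with median centring, with the deposited log ratios and with probe medians. For these genes the series table gave the same ratios as the deposited ones to 2 decimals, and the filters leave the ratios of these genes as they are.

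**Figure D4:**
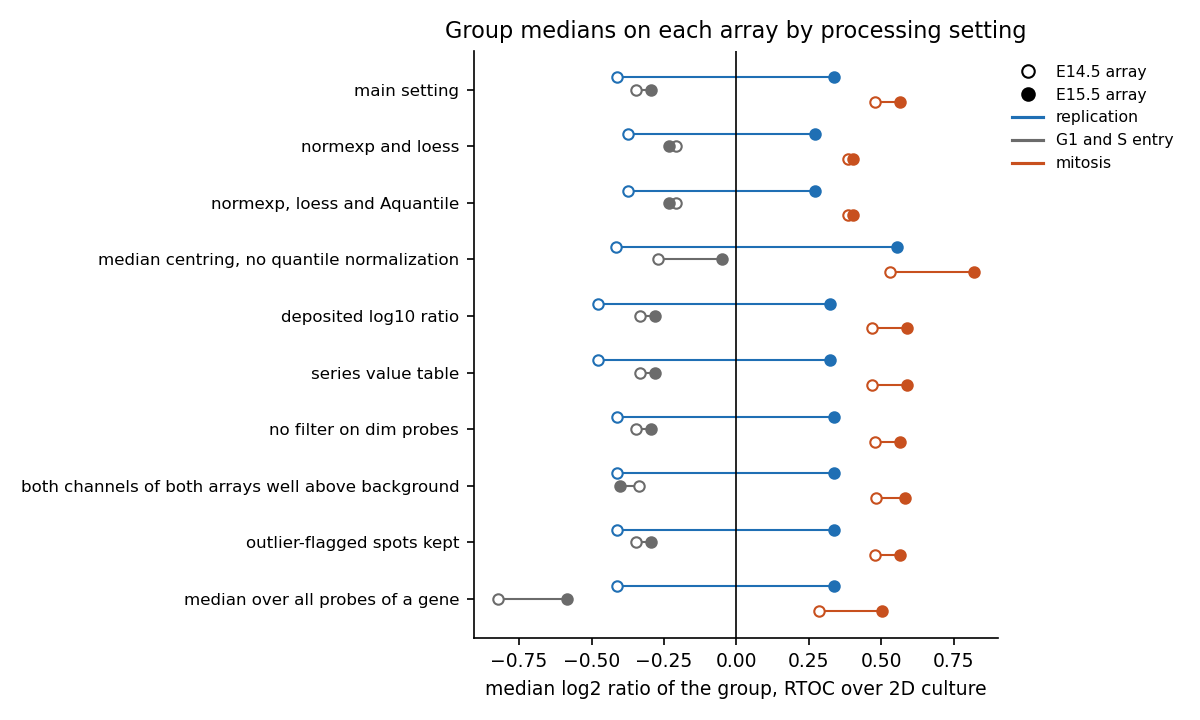
Median log2 ratio of each group, RTOC over 2D culture (horizontal), for E14.5 (open) and E15.5 (filled) under each processing setting (rows); lines join the arrays and are no error bars. The replication medians lie on both sides of 0 in every row drawn, from -0.48 to -0.37 and from 0.27 to 0.55, and the mitosis medians right of 0 in every row.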

How the data were processed

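RNA of both cultures was labelled with Cy3 (2D) or Cy5 (RTOC) and hybridized to Agilent arrays. The authors ran Feature Extraction (version 11.5.1.1 per the submitters' processing notes, 9.1.3.1 per the file headers), and the deposited files hold each spot's mean signal, local background and processed signal as an intensity. Deposited beside them are the log10 ratio of the channels (Cy5 to Cy3), listed as 0 in 10879 (E14.5) and 10531 (E15.5) spots with unequal processed signals, and a p-value for each spot's ratio within its array, which was not used here. The series table holds the log10 ratio of the processed signals. The methods name quantile normalization in GeneSpring.

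Here, processed signals of non-control spots without outlier flags were quantile normalized over the 4 channels as in the methods, expressed as log2 ratios and averaged over spots of a probe. Probes with a signal well above background in 1 or both channels of each array (23685 of 41174; 53.1 to 60.9% of probes were above background in a channel) were fitted with limma 3.58.1 in R 4.3.3, with 1 residual degree of freedom per probe moderated by a prior of 4.5. With 2 arrays an exact sign-flip test cannot go below p = 0.5, so it cannot bring a gene past the threshold. A gene's value on a single array has no test here, and the number of arrays limits the precision. Probes were named through RefSeq accessions (22951), symbols (6659) or older symbols (3109), and 8455 had no name. A gene is its brightest probe. In each of 7 classes the text names the 3 members with the largest and the 1 with the smallest mean ratio among those well above background throughout, members with opposite signs on the arrays, and others by role after their values were seen. Members and lists were chosen with earlier results of these data known. Alternatives were normexp with an offset of 50, other scalings and filters, other fits and probe medians. Each array is a block, since its channels were hybridized together. A marker gene of 1 list is not reported here.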

Additional observations from a re-analysis of the deposited data

Results flagged for a closer look

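The following values were singled out because a gene had opposite signs on the arrays of the 2 stages; the difference between stages was not tested, and stage and array cannot be told apart. The log2 ratio on the E15.5 array exceeded that on the E14.5 array by 1.16 for Mcm2, 1.37 for Mcm3, 1.21 for Mcm4, 0.90 for Mcm5, 1.34 for Mcm6, 0.62 for Mcm7, 0.62 for Mcm10 and 1.24 for Cdt1. It did so by 1.13 for Pole, 1.27 for Rrm1 and 0.95 for Tyms. Outside replication the difference was 0.70 for Cdk2, 0.27 for Cdc25c, 0.51 for Ttk, 0.32 for Tpx2 and 0.88 for Top2a, and it ran the other way for Ube2c at -0.42 and Aurka at -0.25. The median of the replication group differed by 0.75.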

How the results depend on the processing

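Against 6820 probes past the threshold, counted anew under each setting, 3709 passed with normexp and loess (Aquantile leaves ratios as they are). With no replicate block 4033 passed, and 3539 with the t-test unadjusted. After Benjamini-Hochberg of that t-test, or with limma when dim probes were not filtered out, 0 passed (3539 and 10666 had an unadjusted p under 0.05). Without the filter or with the adjusted t-test, 0 members and 0 further genes passed, in each group and direction. With no replicate block, that is without the array as a block, 4 members rose (1 of replication, 2 of G1 and S entry and 3 of mitosis passed) and 2 further genes rose and 0 fell; the 6 members that lost the call were Ccnd2, Gmnn, Ccna2, Cdc25b, Mad2l1 and Nusap1, with adjusted p from 0.0510 to 0.211. With normexp and loess 3 mitosis genes passed and 0 further genes fell, 2 fell when all channels had to be above background, 0 with probe medians, and 4 rose with the unadjusted t-test. The G1 and S entry median was -0.20 with normexp and loess, -0.13 with median centring, -0.37 with all channels above background and -0.64 with probe medians, and the mitosis median 0.32 with normexp and loess and 0.54 with median centring; the cause was not tested. Median centring gave the probes tested a median ratio of 0.151 instead of -0.01, and 65.1% of its 7801 calls were higher against 52.9%. With the E14.5 or the E15.5 array alone, the G1 and S entry median was -0.35 or -0.29, the mitosis median 0.48 or 0.56, and the mitosis minus replication median 0.89 or 0.23. No member past the threshold changed direction. Over the values of the members named by rule or past the threshold in any setting, 431 kept their side of the threshold under the distinct alternatives that keep both arrays, 39 lost and 12 gained the call.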
